A study of Mus musculus with 16 samples.

Results

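Vehicle-treated common dendritic progenitors (CDPs) carrying the IkL/L genotype were set against vehicle-treated WT CDPs, across every gene of the array. The 4 arrays, 2 of IkL/L CDPs and 2 of WT CDPs, were taken by their labels out of 16 in the series, whose other arrays hold monocyte and dendritic progenitors (MDPs) and cells given a γ-secretase inhibitor (GSI). IkL/L is a hypomorphic mutation of Ikzf1, the gene of the transcription factor Ikaros, carried by all the cells, so that little functional Ikaros is made. CDPs of both genotypes were sorted from bone marrow as CD45.2+ cells and cultured for 24 h in medium with Flt3L and DMSO, together with CD45.1+ WT bone marrow. CD45.2+ cells were then purified again, and the study describes no second gate on progenitor markers. Their RNA was amplified and hybridised to Affymetrix mouse Gene ST arrays. The labels give no age or sex, though the methods of the study give an age range in weeks for the mice it used. The legend of the study gives 2 mice per condition, and neither it nor the labels say whether arrays share mice across conditions.

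CDPs are Flt3-dependent bone marrow cells that give rise to plasmacytoid and conventional dendritic cells (DCs). Ikaros is a zinc finger protein that binds DNA and works with chromatin remodelling complexes, and it can repress as well as activate its targets. Early progenitors divide often, whereas DCs in their final state divide little and carry antigen-presenting and migration genes. Uptake of dying cells and particles through lectin and scavenger receptors is a trait of DCs before that state.

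Values are log2 signals made by the authors with RMA, in which 1 unit is a doubling. A gene was called when its adjusted p was under 0.05 in limma, with Benjamini-Hochberg adjustment over all 19938 genes, and "rose" or "fell" is used of called genes only. None of the marker genes of the CDP gate was called. Csf1r, the receptor for macrophage colony-stimulating factor, stood at 10.88 and 10.56 in IkL/L CDPs and at 10.77 and 10.12 in WT CDPs. Flt3, the receptor for Flt3L, stood at 8.70 and 9.60 in IkL/L CDPs and at 8.16 and 8.56 in WT CDPs (log2 fold change 0.79 ± 0.45 (SE), adjusted p = 0.698). Kit, which encodes CD117, stood at 7.11 and 7.61 in IkL/L CDPs and at 5.71 and 6.64 in WT CDPs (1.19 ± 0.66, adjusted p = 0.68). Both IkL/L arrays were above both WT arrays for Flt3 and Kit, and the arrays overlapped for Csf1r. Itgam, which encodes CD11b and marks cells that the first sort left out, was at 9.91 and 9.95 in IkL/L CDPs and at 10.04 and 9.39 in WT CDPs after the culture. Ikzf1 itself was at 8.62 and 8.94 in IkL/L CDPs and at 8.91 and 8.95 in WT CDPs (log2 fold change -0.15, adjusted p = 0.895). Where its probes lie relative to the mutation is not known here, so that value does not check the genotype. The relatives Ikzf2, Ikzf3, Ikzf4 and Ikzf5 lay between -0.09 and 0.62 in log2 fold change, and none was called.

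The 2 WT CDP arrays differed from each other by over 2-fold in 359 genes, and the 2 IkL/L CDP arrays in 173 genes. WT array 2 had more RNA of primary granule genes than WT array 1, with Mpo (myeloperoxidase) at 11.67 against 7.85 and Elane (neutrophil elastase) at 9.60 against 6.14. It had less of macrophage genes, with Cd36 at 5.46 against 8.37. WT array 2 was also the one of the 4 arrays with low signal of the Y-linked gene Eif2s3y, at 3.16, against 6.90 in WT array 1 and 6.17 and 6.73 in the IkL/L arrays. Xist, which is made from the inactive X chromosome, was at 8.75 and 8.16 in IkL/L CDPs and at 9.20 and 9.37 in WT CDPs. The part of these differences in the calls below was not tested, but without WT array 2 the calls numbered 84 higher and 4 lower genes.

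In all, 186 genes were higher in IkL/L than in WT CDPs (0.933% of the 19938 tested) and 49 were lower (0.246%). Each count of called list members below is to be read beside those shares, and a single call in a list says little about the list. The median log2 fold change of all genes was -0.02. Both IkL/L arrays lay outside the range of the WT arrays in each of the 235 called genes, as they did in 39% of all genes. The calls were made on these same arrays, so for called genes this separation largely follows from the call. Rises were larger than falls, with a median of 1.43 in log2 fold change and a range of 0.43 to 6.11 for the risen genes, and a median of -0.98 and a range of -2.03 to -0.42 for the fallen genes. Of the risen genes, 128 changed by more than 2-fold, and of the fallen genes, 24. The risen genes had a median signal of 6.90 in IkL/L CDPs and 5.00 in WT CDPs, where 80 of the 186 lay below the median of all genes, which was 4.72. The fallen genes had a median signal of 6.91 in IkL/L CDPs and 8.05 in WT CDPs, where none of the 49 lay below that median. A gene with a low signal in WT CDPs has little room to be called as fallen, so this contrast with the risen genes is largely set by the call. In bulk RNA, fewer cells with a transcript and less transcript per cell cannot be told apart. When each of the 16 arrays was left out in turn, 66 risen and 3 fallen genes were called in all 16 fits. Only 4 of those 16 fits leave out a compared array. The others keep the values of the 4 compared arrays and change only the estimate of spread. Leaving out either array of such a group gives the same fit for this contrast. Counts of fits below thus include fits that drop no compared array. A gene called in most of the 16 can still be lost without each of the 4. At an unadjusted p under 0.05, 991 genes were higher and 880 lower.

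**Figure D1:**
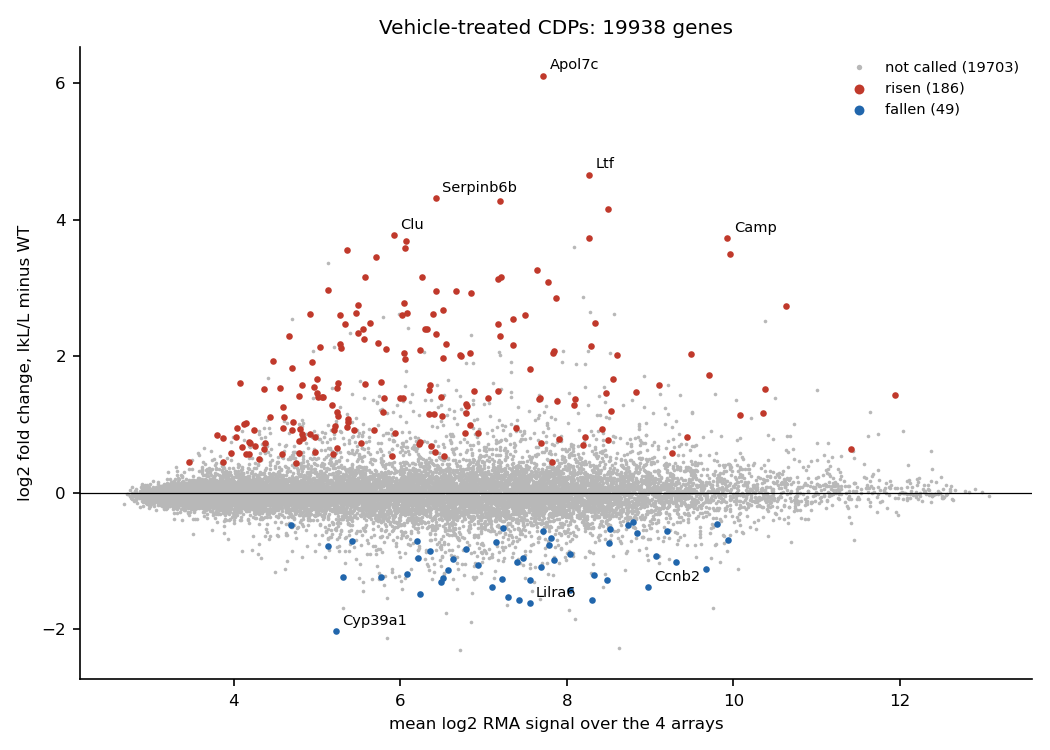
Log2 fold change (IkL/L minus WT, vertical axis) against the mean log2 RMA signal over the 4 vehicle-treated CDP arrays (horizontal axis), 1 point a gene. Red points are the 186 risen genes, blue points the 49 fallen genes and grey points the rest, and the red points reach 6.11 while the blue points stop at -2.03.

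The largest rise was that of Apol7c, a member of the apolipoprotein L family, at 10.46 and 11.09 in IkL/L CDPs and at 4.32 and 4.99 in WT CDPs (log2 fold change 6.11 ± 0.96 (SE), adjusted p = 0.013). The genotypes lay far apart, but the standard error, which pools all 8 groups, was wide, and the call was lost on leaving out any of the 4 compared arrays (highest adjusted p = 0.102). Next among the risen genes, after the lactoferrin gene Ltf, came Serpinb6b, an inhibitor of intracellular serine proteases, at 8.26 and 8.91 in IkL/L CDPs and at 3.97 and 4.56 in WT CDPs (4.32 ± 0.34, adjusted p = 0.000196). Clu, which encodes the secreted chaperone clusterin, was at 7.43 and 8.21 in IkL/L CDPs and at 4.11 and 3.96 in WT CDPs (3.78 ± 0.25, adjusted p = 0.000103). For both genes, the lower IkL/L array lay more than 3 units above the higher WT array, and both calls held in all 16 fits with 1 array left out.

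The promoters of the first 3 risen genes by size for which the RefSeq promoter set used here gives one are shown, since these genes carried the largest changes. Each runs from 250 bases before to 50 bases after the annotated start in GRCm38.p6, 5′ to 3′ on the strand of the gene, and capitals mark any match, on either strand, to the CHR element (TTTGAA), the CCAAT box (CCAAT), the NF-kB motif (GGGA and TTCC with any 2 bases between) or the Ikaros core motif (TGGGAA).
Apol7c (chr15:77533266-77533565, minus strand): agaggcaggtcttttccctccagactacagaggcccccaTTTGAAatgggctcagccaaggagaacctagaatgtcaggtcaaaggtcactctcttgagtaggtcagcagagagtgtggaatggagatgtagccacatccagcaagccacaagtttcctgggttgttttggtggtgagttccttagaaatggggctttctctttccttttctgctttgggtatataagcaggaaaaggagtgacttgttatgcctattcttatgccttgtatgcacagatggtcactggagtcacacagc
Ltf (chr9:111019042-111019341, plus strand): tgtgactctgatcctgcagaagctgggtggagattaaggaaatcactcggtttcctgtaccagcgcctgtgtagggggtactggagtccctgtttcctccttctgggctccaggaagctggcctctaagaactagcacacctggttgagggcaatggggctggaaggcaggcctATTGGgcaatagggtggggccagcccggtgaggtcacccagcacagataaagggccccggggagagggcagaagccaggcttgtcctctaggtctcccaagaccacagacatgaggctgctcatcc
Serpinb6b (chr13:32965011-32965310, plus strand): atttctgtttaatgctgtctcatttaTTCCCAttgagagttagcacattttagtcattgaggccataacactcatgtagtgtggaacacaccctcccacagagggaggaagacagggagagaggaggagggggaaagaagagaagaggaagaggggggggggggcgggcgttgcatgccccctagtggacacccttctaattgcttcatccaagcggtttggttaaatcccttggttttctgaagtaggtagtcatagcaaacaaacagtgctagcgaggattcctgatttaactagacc
The 3 windows shared no motif. Of the 186 risen genes, 146 had a promoter in the table, and 42 of these (28.8%) held the Ikaros core motif, against 25.5% of all 27025 promoters. The NF-kB motif stood in 6 of the 146 (4.11%) and in 1.43% of all promoters. Those 6 genes, named after they were seen, were Pglyrp1, Stap2, AW112010, Slamf8, Rgl1 and Cxcl3. These matches describe the letters only.

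Protease inhibitors and matrix proteases were among the largest rises. In a list of proteases and their inhibitors, 5 of 50 measured genes rose and none fell, with a median of 0.14 over the list. Serpinb9, which blocks granzyme B, was at 6.49 and 7.25 in IkL/L CDPs and at 3.99 and 4.24 in WT CDPs (2.76 ± 0.27, adjusted p = 0.000776). Mmp25, a metalloproteinase anchored in the membrane, was at 7.72 and 7.97 in IkL/L CDPs and at 4.23 and 4.28 in WT CDPs (3.59 ± 0.22, adjusted p = 6.79e-05). The arrays of each genotype agreed to within 0.3 units for Mmp25, and the genotypes were more than 3 units apart. Mmp9, a gelatinase stored in neutrophil granules, was at 7.83 and 6.49 in IkL/L CDPs and at 3.80 and 4.20 in WT CDPs (3.16 ± 0.63, adjusted p = 0.0428). Its IkL/L arrays were further apart, and its call held in 2 of the 16 fits with 1 array left out (highest adjusted p = 0.276). Anpep, the membrane aminopeptidase CD13, rose by 2.49 ± 0.46 (adjusted p = 0.0302) and was called in 8 of those fits (highest adjusted p = 0.222).

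**Figure D2:**
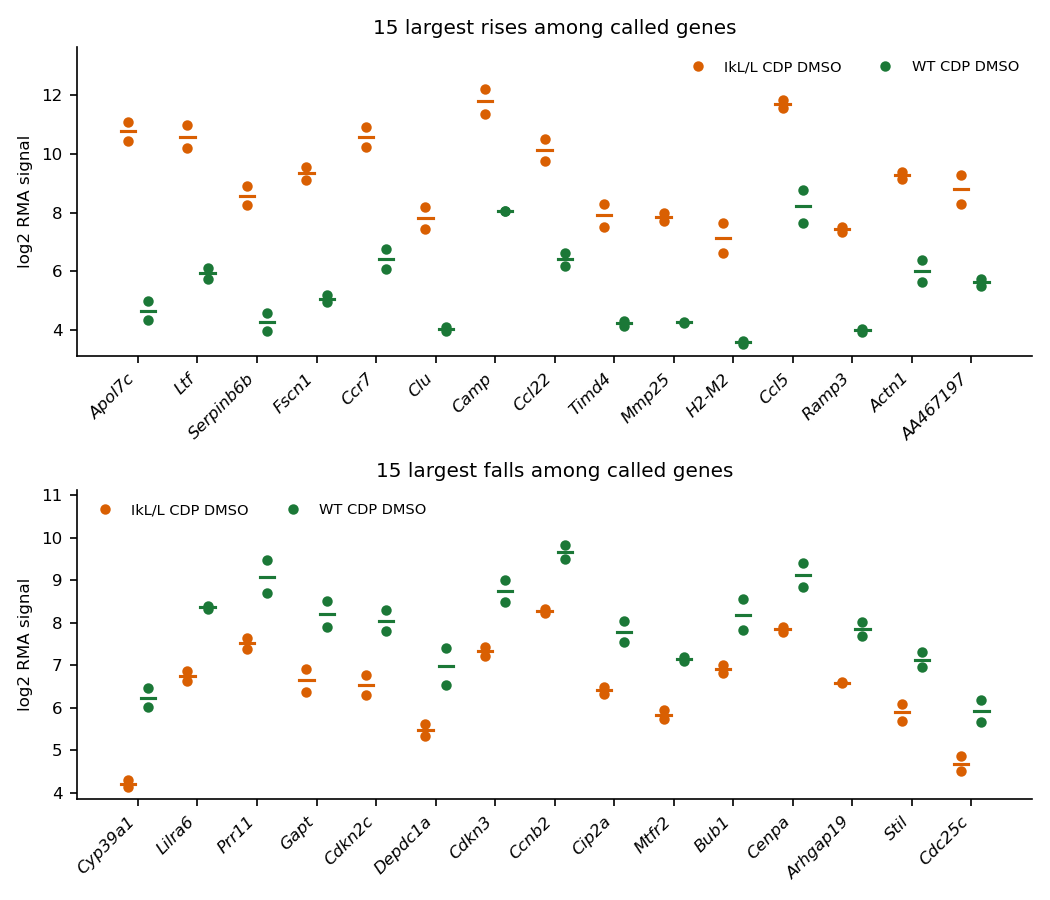
Log2 RMA signal (vertical axis) of the 15 largest rises and 15 largest falls among called genes in the 4 vehicle-treated CDP arrays, with 1 point an array and a bar at the mean of 2. In every gene shown the 2 IkL/L points lie wholly above or wholly below the 2 WT points, and the gap is wider for the rises. The genes were called and ranked on these same arrays, so that separation follows from the choice.

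Receptors for sugars and dying cells rose in a set of 5 of 34 measured C-type lectins and phagocytic receptors (median of the list 0.22). Timd4, a receptor for phosphatidylserine on apoptotic cells, was at 7.52 and 8.29 in IkL/L CDPs and at 4.14 and 4.29 in WT CDPs (3.68 ± 0.38, adjusted p = 0.0012). Cd209d, a relative of DC-SIGN, was at 9.06 and 9.53 in IkL/L CDPs and at 6.57 and 6.32 in WT CDPs (2.85 ± 0.33, adjusted p = 0.00214). Mrc1, the macrophage mannose receptor, was at 7.15 and 7.64 in IkL/L CDPs and at 4.60 and 4.91 in WT CDPs (2.64 ± 0.35, adjusted p = 0.00467). Clec4a4 (2.40 ± 0.30) and Ly75, the endocytic receptor DEC-205 (2.19 ± 0.20), rose as well. Without IkL/L array 2, Mrc1 missed the threshold (adjusted p = 0.0562), and the other 4 genes were called whichever array was left out. Of the 34 genes, 21 had a higher and 13 a lower mean in IkL/L CDPs, and at an unadjusted p under 0.05 there were 11 higher and 1 lower.

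Among 39 Ig-like and Siglec receptors, 2 rose and 1 fell. Slamf9 was at 7.90 and 8.96 in IkL/L CDPs and at 6.03 and 6.49 in WT CDPs (2.17 ± 0.35, adjusted p = 0.0154), and Slamf8 rose by 2.00 ± 0.36 (adjusted p = 0.0273). Lilra6, a leukocyte Ig-like receptor of the paired activating and inhibitory family, moved the other way, at 6.86 and 6.63 in IkL/L CDPs and at 8.39 and 8.33 in WT CDPs (-1.62 ± 0.29, adjusted p = 0.0298). Its 2 arrays of either genotype lay close together. The calls held in 13 (Slamf9), 12 (Slamf8) and 8 (Lilra6) of the 16 fits with 1 array left out, with a highest adjusted p of 0.219, for Slamf8. Fcer2a, the low-affinity IgE receptor CD23, rose by 1.54 ± 0.15 (adjusted p = 0.000933), the only call among 25 Fc and complement receptors, and held in all 16 fits.

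Genes that make lipid mediators rose in 4 of 25 cases, and 21 of the 25 had a higher mean in IkL/L CDPs (median 0.13). Alox5, the 5-lipoxygenase that starts leukotriene synthesis, was at 8.51 and 8.96 in IkL/L CDPs and at 6.27 and 4.92 in WT CDPs (3.14 ± 0.34, adjusted p = 0.00148). The WT arrays were more than 1 unit apart for Alox5, and both IkL/L arrays were above them by more than 2 units. Ltc4s, the leukotriene C4 synthase that acts further along the path, was at 5.33 and 5.36 in IkL/L CDPs and at 4.43 and 4.53 in WT CDPs (0.87 ± 0.14, adjusted p = 0.0134). Ptgs2, the inducible cyclooxygenase of prostaglandin synthesis, was at 5.25 and 5.27 in IkL/L CDPs and at 4.42 and 4.23 in WT CDPs (0.94 ± 0.17, adjusted p = 0.0253). Ephx1, a microsomal epoxide hydrolase, rose by 0.64 ± 0.09 (adjusted p = 0.00467). Of these, Alox5 was called in all 16 fits with 1 array left out and the other 3 in 12 to 14, with a highest adjusted p of 0.207, for Ptgs2.

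In sterol metabolism the called genes went in opposite directions. Cyp39a1, an oxysterol 7α-hydroxylase, had the largest fall of all called genes, at 4.29 and 4.14 in IkL/L CDPs and at 6.02 and 6.46 in WT CDPs (-2.03 ± 0.41, adjusted p = 0.0457). Cyp7b1, another oxysterol 7α-hydroxylase, singled out after its values were seen, was at 5.02 and 5.24 in IkL/L CDPs and at 3.48 and 3.72 in WT CDPs (1.52 ± 0.21, adjusted p = 0.00592). Abcg1, a cholesterol exporter, rose by 0.69 ± 0.12 (adjusted p = 0.0201), the only call among 29 genes of cholesterol synthesis and uptake, whose median was 0.15. Apol10b, of the same family as Apol7c, rose by 0.85 ± 0.15 (adjusted p = 0.0297). The call of Cyp39a1 held in 4 of the 16 fits with 1 array left out (highest adjusted p = 0.319), that of Apol10b in 7 (0.177), that of Abcg1 in 13 (0.186) and that of Cyp7b1 in 15 (0.0634).

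Glucose metabolism gave 2 calls among 31 genes of glycolysis and hypoxia (6.45%, against 0.933% of all genes risen), with a median of -0.03. Pfkfb3, which makes the activator of phosphofructokinase, was at 8.56 and 9.19 in IkL/L CDPs and at 7.18 and 6.43 in WT CDPs (2.07 ± 0.27, adjusted p = 0.00429) and was called in all 16 fits with 1 array left out. Slc2a3, the glucose transporter GLUT3, rose by 1.18 ± 0.23 (adjusted p = 0.0368) and was called in 4 of those fits (highest adjusted p = 0.201). Outside the list, 3 risen genes, chosen after their values were seen, also encode sugar-metabolising enzymes. Aldoc, an aldolase, was at 8.26 and 8.55 in IkL/L CDPs and at 5.84 and 6.03 in WT CDPs (2.47 ± 0.26, adjusted p = 0.00125). Eno3, an enolase known from muscle, was at 7.16 and 8.03 in IkL/L CDPs and at 5.16 and 5.37 in WT CDPs (2.33 ± 0.29, adjusted p = 0.00307), and Gfpt1, the first enzyme of hexosamine synthesis, rose by 1.29 ± 0.17 (adjusted p = 0.00452). No gene was called among 41 of the respiratory chain and the TCA cycle (median -0.01), where 4 were at an unadjusted p under 0.05, nor among 36 of nucleotide and one-carbon synthesis (median -0.16), where 3 were.

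Chemokine genes rose in 4 of 28 cases, and none fell. Beside Ccl22 and Ccl5, these were Cxcl3, a ligand of Cxcr2, at 5.89 and 5.78 in IkL/L CDPs and at 4.59 and 4.71 in WT CDPs (1.18 ± 0.20, adjusted p = 0.0174), and Cx3cl1, which exists in a membrane-bound form, at 4.83 and 5.62 in IkL/L CDPs and at 4.24 and 4.14 in WT CDPs (1.04 ± 0.20, adjusted p = 0.0386). Cxcr2, which draws neutrophils to CXC chemokines, was at 8.93 and 7.69 in IkL/L CDPs and at 5.18 and 5.59 in WT CDPs (2.93 ± 0.52, adjusted p = 0.0257). IkL/L array 1 was higher than array 2 in Cxcr2, as in most neutrophil genes. Cxcl3 was called in 12, Cx3cl1 in 3 and Cxcr2 in 13 of the 16 fits with 1 array left out, with a highest adjusted p of 0.244, for Cx3cl1.

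Cytokines and their receptors gave few calls, all of them rises. Il1b, the inflammatory cytokine interleukin-1β, was at 8.55 and 8.38 in IkL/L CDPs and at 6.52 and 6.78 in WT CDPs (1.81 ± 0.35, adjusted p = 0.0398). Il15ra, which presents interleukin-15 to neighbouring cells, was at 6.95 and 7.01 in IkL/L CDPs and at 5.74 and 5.91 in WT CDPs (1.15 ± 0.17, adjusted p = 0.00852). The receptor genes Il2ra (1.02 ± 0.21, adjusted p = 0.0461) and Tnfrsf4 (0.97 ± 0.19, adjusted p = 0.0417) and Tnfsf4 or OX40L, the ligand of Tnfrsf4 (0.59 ± 0.09, adjusted p = 0.0134), also rose. These made 2 of 34 ligands and 3 of 40 receptors, with medians of 0.11 and 0.24. Il1b had the largest difference of these 5 genes and Tnfsf4 the smallest. With 1 array left out, Il15ra was called in 15 fits, Tnfsf4 in 13, Tnfrsf4 in 5, Il1b in 4 and Il2ra in 3, and the highest adjusted p was 0.303, for Il2ra.

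Signalling and survival genes of the NF-kB family rose in 4 of 27 cases, and 24 of the 27 had a higher mean in IkL/L CDPs (median 0.31). Traf1, an adaptor of TNF receptors, was at 6.45 and 7.11 in IkL/L CDPs and at 4.37 and 3.92 in WT CDPs (2.64 ± 0.24, adjusted p = 0.000469). Relb, the subunit of the non-canonical pathway, was at 6.95 and 7.34 in IkL/L CDPs and at 5.93 and 5.19 in WT CDPs (1.59 ± 0.21, adjusted p = 0.00467). Birc2, the ubiquitin ligase cIAP1, rose by 1.35 ± 0.19 and Nfkbie, an inhibitor of NF-kB, by 1.27 ± 0.24. WT array 2 was the lower WT array of Relb and Nfkbie, and the median of the list was 0.09 without that array and 0.82 without WT array 1. Traf1 was called in all 16 fits with 1 array left out, Relb in 15, Birc2 in 14 and Nfkbie in 7 (highest adjusted p = 0.171).

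The costimulators and checkpoint ligands that rose were 5 of 22, with a median of 0.60 for the list (0.21 without WT array 2). Cd200, an inhibitory ligand, was at 7.08 and 7.57 in IkL/L CDPs and at 4.75 and 4.70 in WT CDPs (2.60 ± 0.26, adjusted p = 0.000859). Pvr, a ligand of DNAM-1 and TIGIT, was at 7.20 and 7.22 in IkL/L CDPs and at 6.38 and 6.30 in WT CDPs (0.87 ± 0.10, adjusted p = 0.00204). Its change was small but the arrays of each genotype lay within 0.1 units. Cd83 (2.54 ± 0.33) and Cd80 (1.16 ± 0.20), markers of DC activation, and Tnfsf4 were the others. Cd200, Pvr and Cd83 were called in all 16 fits with 1 array left out, and Cd80 and Tnfsf4 in 13 each, with highest adjusted p values of 0.194 and 0.139.

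Socs2, Rgs1 and Spred1, which are known to limit receptor signals, rose. Socs2, a suppressor of cytokine receptor signalling, was at 6.05 and 7.09 in IkL/L CDPs and at 3.94 and 3.99 in WT CDPs (2.60 ± 0.36, adjusted p = 0.00575), the only call among 23 genes of cytokine signalling. A second probe set of Socs2 gave a log2 fold change of 0.44. Rgs1, which shortens signals of G protein-coupled receptors, was at 7.65 and 8.15 in IkL/L CDPs and at 5.14 and 4.75 in WT CDPs (2.96 ± 0.38, adjusted p = 0.00421). Spred1, an inhibitor of the Ras and MAP kinase pathway, rose by 0.82 ± 0.13 (adjusted p = 0.0131). Rgs1 and Spred1 were the 2 calls among 35 genes of MAP kinase feedback (5.71%), of which 19 had a higher and 16 a lower mean (median 0.02). Without WT array 2, neither Socs2 nor Rgs1 passed (adjusted p = 0.0546 for both). Spred1 was called in 14 of the 16 fits with 1 array left out, with a highest adjusted p of 0.122. Among 47 genes of the Notch and TGF-β pathways, Eng (endoglin, a TGF-β co-receptor) was the only call, at 7.83 and 8.0 in IkL/L CDPs and at 6.16 and 6.68 in WT CDPs (1.49 ± 0.26, adjusted p = 0.0257), and it was called in 12 of the 16 fits with 1 array left out (highest adjusted p = 0.168). The median of that list was 0.02, and its only call was 2.13% of its genes, against 0.933% of all genes.

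Of 98 hematopoietic transcription factors, 4 rose (4.08%, against 0.933% of all genes) and none fell (median 0.10). Nr4a3, an orphan nuclear receptor, was at 5.99 and 7.39 in IkL/L CDPs and at 4.35 and 4.52 in WT CDPs (2.25 ± 0.41, adjusted p = 0.0288). Etv3, a repressor of the ETS family, was at 9.10 and 9.67 in IkL/L CDPs and at 8.12 and 7.32 in WT CDPs (1.67 ± 0.27, adjusted p = 0.0139). Irf1 (0.95 ± 0.15, adjusted p = 0.013), a regulator of interferon-responsive genes, and Tsc22d3 or GILZ (0.60 ± 0.12, adjusted p = 0.0391), which glucocorticoids induce, completed the 4. With 1 array left out, Etv3 and Irf1 were called in 14 of 16 fits, Nr4a3 in 7 and Tsc22d3 in 6, with a highest adjusted p of 0.265, for Tsc22d3. Irf4, a factor of conventional DCs, had values of 6.97 and 7.71 in IkL/L CDPs and of 6.48 and 5.73 in WT CDPs (1.23 ± 0.60) and was not called (adjusted p = 0.583). Mxd1, a partner of MAX that opposes MYC, rose by 1.16 ± 0.18 (adjusted p = 0.0115, called in 13 of the fits, highest adjusted p = 0.126), the only call among 43 genes of ribosome biogenesis and MYC, whose median was 0.00. That call was 2.33% of the list.

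Some shape, adhesion and junction genes rose as well. Among 57 actin and motility genes, 5 rose (8.77%, against 0.933% of all genes), 42 had a higher mean in IkL/L CDPs and the median was 0.15. Beside fascin (Fscn1), Actn1, the actin crosslinker α-actinin-1, was at 9.14 and 9.40 in IkL/L CDPs and at 5.63 and 6.37 in WT CDPs (3.27 ± 0.43, adjusted p = 0.0044). Actn1 was called whichever array was left out. F11r, the junctional adhesion molecule JAM-A, was at 8.66 and 8.95 in IkL/L CDPs and at 6.43 and 5.97 in WT CDPs (2.60 ± 0.16, adjusted p = 6.79e-05). Itgb8, the integrin chain that activates latent TGF-β, was at 5.72 and 6.08 in IkL/L CDPs and at 3.98 in both WT arrays (1.92 ± 0.13, adjusted p = 0.000108). Cldn1, the tight junction protein claudin-1, was at 7.88 and 8.41 in IkL/L CDPs and at 4.94 and 5.43 in WT CDPs (2.96 ± 0.39, adjusted p = 0.00452) and missed the threshold without IkL/L array 2 (adjusted p = 0.0519). Of 42 integrins and adhesion genes, 4 rose and none fell, Cd9 (1.59 ± 0.29) and Itgb1 (0.81 ± 0.15) being the others, called in 7 and 11 of the 16 fits with 1 array left out (highest adjusted p = 0.196 and 0.243). Those 4 were 9.52% of that list, whose median was 0.18.

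Some of the firmest rises belonged to no list or to few-member functions. Ramp3, which partners the calcitonin receptor-like receptor, was at 7.35 and 7.52 in IkL/L CDPs and at 4.02 and 3.94 in WT CDPs (3.45 ± 0.25, adjusted p = 0.000135). H2-M2, a non-classical class I molecule, was at 6.63 and 7.66 in IkL/L CDPs and at 3.53 and 3.63 in WT CDPs (3.56 ± 0.28, adjusted p = 0.000158). Mreg (melanoregulin, involved in organelle transport) was at 7.41 and 8.26 in IkL/L CDPs and at 4.49 and 4.87 in WT CDPs (3.16 ± 0.40, adjusted p = 0.00323). AA467197 rose by 3.17 ± 0.38 (adjusted p = 0.00267). All 4 were called in every fit with 1 array left out. The following were chosen after their values were seen, among genes called in all 16 of those fits. Bcl2a1c, a gene of the anti-apoptotic Bcl2a1 cluster whose near-identical copies the probes may not tell apart, rose by 2.40 ± 0.15, and Fxyd2, a subunit that tunes the sodium pump, by 2.47 ± 0.15. Stap2, a signalling adaptor, rose by 2.48 ± 0.17, Tspan3, a tetraspanin, by 2.16 ± 0.20, and Nectin1, an adhesion molecule, by 2.41 ± 0.27. Adcy4, an adenylate cyclase, rose by 1.63 ± 0.19, and Ube2l6, which conjugates the interferon-induced protein ISG15, by 2.05 ± 0.16. Klri1, an NK receptor-like lectin, rose by 2.62 ± 0.35.

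Antigen presentation and interferon genes gave few calls, and most of them had a higher mean in IkL/L CDPs. Of 18 class I processing genes, 17 had a higher mean in IkL/L CDPs (median 0.35) and none was called, while 6 were higher at an unadjusted p under 0.05. All 12 class II presentation genes had a higher mean (median 0.88), and H2-Eb2, at 5.38 and 6.10 in IkL/L CDPs and at 4.28 and 4.09 in WT CDPs (1.55 ± 0.30, adjusted p = 0.0386), was called, in 5 of the 16 fits with 1 array left out (highest adjusted p = 0.271). Of 29 interferon response genes, 26 had a higher mean (median 0.72), and Irf1 and Herc6 (0.87 ± 0.17, adjusted p = 0.04) were called. The mean level of that list was 7.54 and 7.14 in IkL/L CDPs and 6.60 and 6.67 in WT CDPs, so that IkL/L array 1 was the highest of the 4. Its median was 0.49 without IkL/L array 1 and 0.85 without IkL/L array 2, and without WT array 2 none of its genes was called. Herc6 was called in 6 of the 16 fits with 1 array left out, with a highest adjusted p of 0.201.

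**Figure D3:**
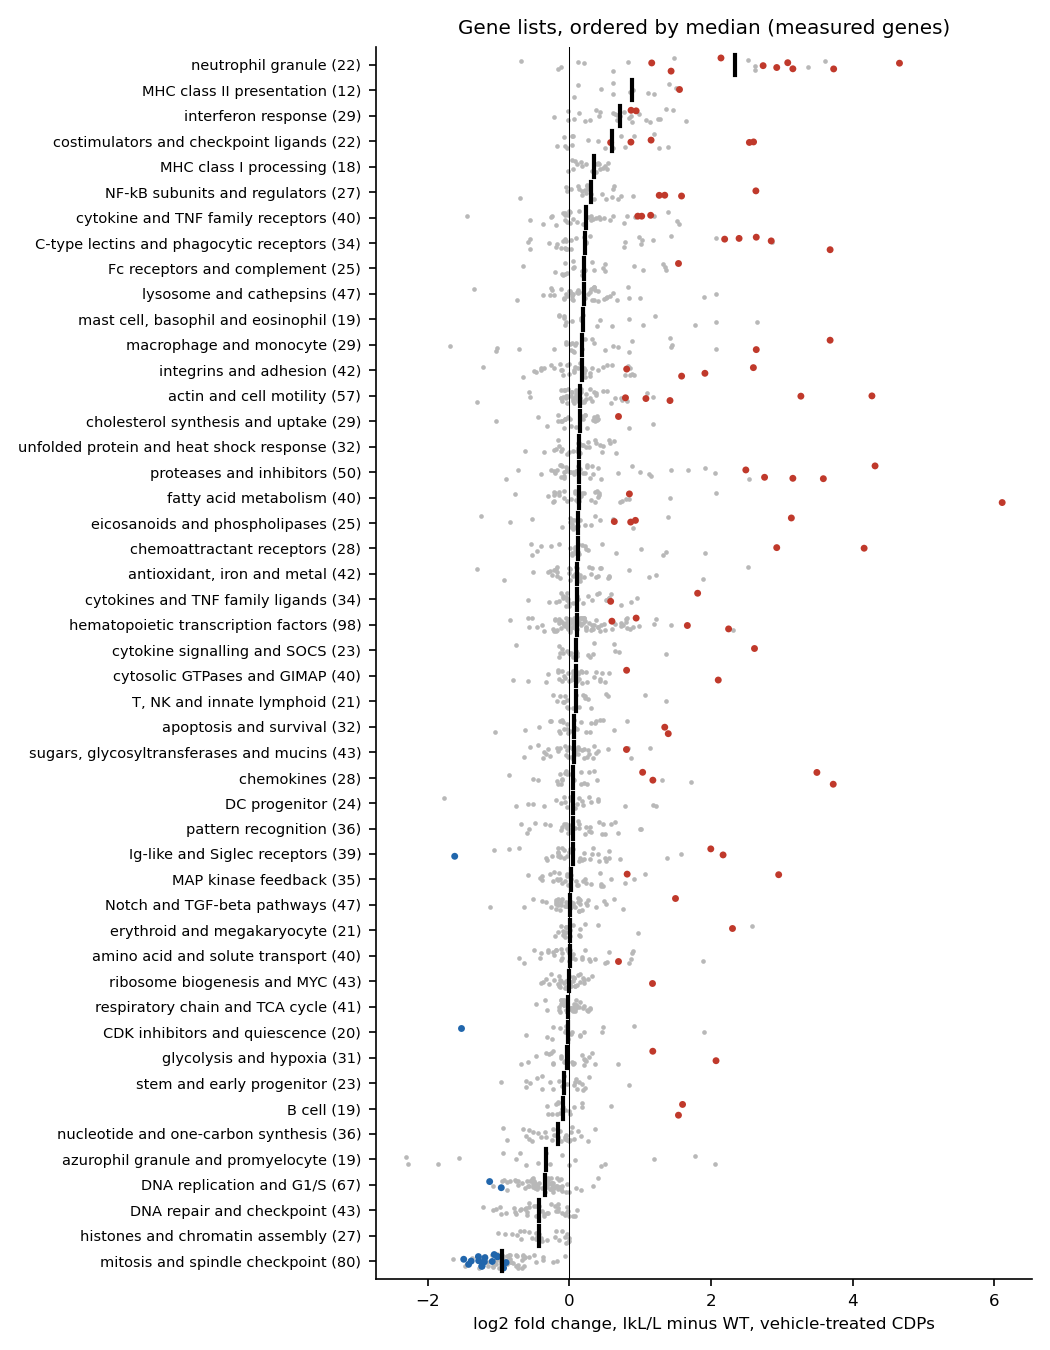
Log2 fold change (IkL/L minus WT, horizontal axis) of every measured member of 48 gene lists in vehicle-treated CDPs, with the number measured in brackets. Grey points were not called, red points rose, blue points fell and black bars are list medians, which run from -0.96 for mitosis to 2.33 for neutrophil granules.

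Markers of other cell types were read in the same arrays. Neutrophil granule genes rose in 9 of 22 cases and had a median of 2.33. The mean level of that list was 9.70 and 8.83 in IkL/L CDPs and 7.27 and 7.42 in WT CDPs. Pglyrp1, a granule protein that binds bacterial walls, was at 9.90 and 8.73 in IkL/L CDPs and at 6.09 and 6.38 in WT CDPs (3.09 ± 0.60, adjusted p = 0.0386), and Ly6g, the defining neutrophil surface marker, was at 7.79 and 5.85 in IkL/L CDPs and at 3.14 and 3.75 in WT CDPs (3.37 ± 0.69, adjusted p = 0.052). In a list of 19 primary granule and promyelocyte genes none was called, and the median was -0.33. At an unadjusted p under 0.05, 3 were higher (Cebpe, Fcnb and Serpinb1a) and 5 lower (Mpo, Elane, Ctsg, Ap3s1 and Plac8). Without WT array 2 that median was 0.04 and 1 of the 19 was higher, and without WT array 1 the median was -0.58 and 4 were lower. Pglyrp1 was called in 6 of the 16 fits with 1 array left out (highest adjusted p = 0.254). Without either WT array, or without IkL/L array 1, only 2 neutrophil granule genes were called, and 6 without IkL/L array 2. Basophil and mast cell genes had no call among 19, with 6 higher at an unadjusted p under 0.05, though Prss34, a basophil protease, had values of 10.29 and 8.92 in IkL/L CDPs and of 8.08 and 5.82 in WT CDPs (2.65 ± 0.85, adjusted p = 0.254). Macrophage genes gave 2 rises of 29, Timd4 and Mrc1, with mean levels of 7.94 and 7.28 in IkL/L CDPs and 7.59 and 6.74 in WT CDPs, array 1 being the higher in each genotype.

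Lymphoid and erythroid marker lists gave few calls, and the level differed widely between their members. B cell genes had mean levels of 4.68 and 4.63 in IkL/L CDPs and 4.46 and 4.60 in WT CDPs, with 2 of 19 risen, Fcer2a and Cd72 (1.60 ± 0.32, adjusted p = 0.0423, called in 3 of the 16 fits with 1 array left out, highest adjusted p = 0.297). T, NK and innate lymphoid genes had mean levels of 4.70 and 4.71 in IkL/L CDPs and 4.52 and 4.49 in WT CDPs, with no call among 21 and 3 higher at an unadjusted p under 0.05. Klrd1, which encodes the NK receptor chain CD94 and was singled out after its values were seen, was at 10.38 and 11.05 in IkL/L CDPs and at 8.97 and 9.72 in WT CDPs (1.37 ± 0.63, adjusted p = 0.543). The T cell gene Cd3e was at 4.82 and 4.52 in IkL/L CDPs and at 4.40 and 4.55 in WT CDPs. Among 21 erythroid and megakaryocyte genes, Ppbp, a platelet chemokine, was the only call, at 5.48 and 6.15 in IkL/L CDPs and at 3.69 and 3.35 in WT CDPs (2.30 ± 0.26, adjusted p = 0.00172). Pf4, another platelet chemokine, singled out after its values were seen, was at 7.38 and 6.77 in IkL/L CDPs and at 4.39 and 4.61 in WT CDPs (2.58 ± 0.83, adjusted p = 0.256) and was not called. The part of other cells in the calls of these marker genes was not tested.

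Cell division genes made up most of the fallen genes that lists covered. Of 80 measured genes of mitosis and the spindle checkpoint, all had a lower mean in IkL/L CDPs, 15 fell, and the median was -0.96. The mean level of the list was 6.68 and 6.98 in IkL/L CDPs and 7.51 and 8.05 in WT CDPs, so the groups did not overlap but WT array 2 was the highest. Arhgap19, a GTPase-activating protein for RhoA that acts in dividing lymphocytes, was at 6.60 and 6.58 in IkL/L CDPs and at 7.69 and 8.01 in WT CDPs (-1.27 ± 0.13, adjusted p = 0.0013). Kif18a, a kinesin that aligns chromosomes on the spindle, was at 5.13 and 5.16 in IkL/L CDPs and at 6.17 and 6.58 in WT CDPs (-1.23 ± 0.14, adjusted p = 0.00204). Cenpa, the histone of the centromere, was at 7.90 and 7.79 in IkL/L CDPs and at 8.85 and 9.40 in WT CDPs (-1.28 ± 0.19, adjusted p = 0.0111). Plk4, the kinase of centriole duplication, was at 7.26 and 7.45 in IkL/L CDPs and at 8.23 and 8.45 in WT CDPs (-0.98 ± 0.13, adjusted p = 0.00465), and Stil, which acts beside it, fell by 1.24 ± 0.25 on the log2 scale (adjusted p = 0.0447). In Arhgap19, Kif18a, Cenpa and Plk4 the IkL/L arrays lay closer together than the WT arrays.

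Arhgap19 and Kif18a were called in all 16 fits with 1 array left out, Plk4 in 15 (highest adjusted p = 0.0588), Cenpa in 13 (0.09) and Stil in 2 (0.326). WT array 2 weighed most on the mitosis list. Without it 1 of the 80 genes was called and the median was -0.69, and without WT array 1 the calls were 21 and the median -1.26. Leaving out either IkL/L CDP array left 3 calls. Most other cell division lists shifted the same way with few calls. Of 67 replication and G1/S genes, 63 had a lower mean (median -0.34, and -0.09 without WT array 2), and the fallen ones were Ccna2 and Dbf4, the activator of the replication kinase Cdc7 (-0.96 ± 0.15, adjusted p = 0.0111), and neither was called without WT array 2 or without either IkL/L CDP array (highest adjusted p = 0.162). Of 43 DNA repair genes, 39 had a lower mean (median -0.43) and none was called, with 11 at an unadjusted p under 0.05. Of 27 histone and chromatin assembly genes, 26 had a lower mean (median -0.43) and none was called, with 6 at an unadjusted p under 0.05. Among inhibitors of cyclin-dependent kinases, Cdkn2c, which encodes p18, was at 6.29 and 6.76 in IkL/L CDPs and at 7.81 and 8.29 in WT CDPs (-1.53 ± 0.31, adjusted p = 0.0474), but was called in 2 of the 16 fits (highest adjusted p = 0.352).

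The promoters of the first 3 fallen genes by size with an entry in the promoter set used are shown here. Cyp39a1, the largest fall, has no entry in that set. The promoter of the cyclin B2 gene Ccnb2, picked after its values were seen, is added since it fell with the mitosis genes. The window, build and capitals are as above.
Lilra6 (chr7:3915452-3915751, minus strand): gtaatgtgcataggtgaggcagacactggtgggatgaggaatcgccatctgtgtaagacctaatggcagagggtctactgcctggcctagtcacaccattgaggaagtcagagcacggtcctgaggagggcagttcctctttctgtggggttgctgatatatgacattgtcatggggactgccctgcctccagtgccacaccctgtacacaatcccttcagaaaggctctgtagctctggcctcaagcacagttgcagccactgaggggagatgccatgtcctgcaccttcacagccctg
Prr11 (chr11:87108665-87108964, minus strand): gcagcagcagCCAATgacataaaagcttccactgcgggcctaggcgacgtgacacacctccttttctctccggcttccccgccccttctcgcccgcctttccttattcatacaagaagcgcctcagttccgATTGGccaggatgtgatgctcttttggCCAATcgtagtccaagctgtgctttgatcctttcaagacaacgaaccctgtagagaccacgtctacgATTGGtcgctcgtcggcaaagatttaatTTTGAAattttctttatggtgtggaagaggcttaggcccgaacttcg
Gapt (chr13:110357123-110357422, minus strand): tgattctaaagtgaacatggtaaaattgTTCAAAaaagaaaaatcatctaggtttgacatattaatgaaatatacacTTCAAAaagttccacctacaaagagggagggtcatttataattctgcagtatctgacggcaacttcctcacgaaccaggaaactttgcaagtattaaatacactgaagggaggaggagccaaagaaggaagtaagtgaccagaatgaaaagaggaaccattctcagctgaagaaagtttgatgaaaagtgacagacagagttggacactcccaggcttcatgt
Ccnb2 (chr9:70421505-70421804, minus strand): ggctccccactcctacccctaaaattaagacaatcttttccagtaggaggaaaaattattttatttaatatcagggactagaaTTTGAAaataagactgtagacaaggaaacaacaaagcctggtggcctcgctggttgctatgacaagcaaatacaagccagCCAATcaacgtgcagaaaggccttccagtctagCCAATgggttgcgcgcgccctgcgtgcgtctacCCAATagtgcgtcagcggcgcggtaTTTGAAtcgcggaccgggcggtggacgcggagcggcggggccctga
The Ccnb2 window held 3 CCAAT boxes, each 33 bases from the next, and 2 CHR elements, the second at base 5 after the start, and Prr11 held 4 CCAAT boxes and a CHR element at base 4. Of the 49 fallen genes, 39 had a promoter in the table. The CHR element, known from genes of late cell cycle, stood in 13 of these (33.3%), against 18.1% of all promoters and 13% of those of risen genes, and the CCAAT box in 21 (53.8%), against 37.9% and 30.1%. Both motifs stood in 9 of the 39 (23.1%), which were Prr11, Depdc1a, Cdkn3, Ccnb2, Cenpa, Arhgap19, Cdca3, Ncapg and Bub1b, in 7.12% of all promoters and in 4.11% of those of risen genes. The Ikaros core motif stood in 5 of the 39 (12.8%).

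Prr11, a proline-rich protein of dividing cells, was at 7.38 and 7.64 in IkL/L CDPs and at 8.70 and 9.47 in WT CDPs (-1.57 ± 0.26, adjusted p = 0.0162). Ccnb2 was at 8.24 and 8.33 in IkL/L CDPs and at 9.50 and 9.84 in WT CDPs (-1.38 ± 0.19, adjusted p = 0.00467). Prr11 was called in 13 of the 16 fits with 1 array left out (highest adjusted p = 0.128), and Ccnb2 missed the threshold only without WT array 2 (adjusted p = 0.0588).

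Further fallen genes were known for other or broader functions. Gapt, a transmembrane adaptor that binds Grb2 in B and myeloid cells, was at 6.92 and 6.37 in IkL/L CDPs and at 7.90 and 8.52 in WT CDPs (-1.57 ± 0.25, adjusted p = 0.0148). Csrp2, a LIM domain protein, was at 6.21 and 5.79 in IkL/L CDPs and at 7.01 and 7.26 in WT CDPs (-1.14 ± 0.20, adjusted p = 0.0276). Cip2a, an inhibitor of the phosphatase PP2A, was at 6.33 and 6.49 in IkL/L CDPs and at 7.54 and 8.04 in WT CDPs (-1.38 ± 0.22, adjusted p = 0.0139), and Mtfr2, a mitochondrial fission regulator, fell by 1.31 ± 0.26 (adjusted p = 0.044). The next genes were chosen after their values were seen. Cds1, which makes CDP-diacylglycerol for phospholipid synthesis, was at 5.71 and 5.75 in IkL/L CDPs and at 6.50 and 6.87 in WT CDPs (-0.95 ± 0.13, adjusted p = 0.00614). Lin9, a core subunit of the MuvB complex on cell cycle promoters, was at 6.33 and 6.42 in IkL/L CDPs and at 7.14 and 7.25 in WT CDPs (-0.82 ± 0.11, adjusted p = 0.0044).

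The last fallen genes described here encode transcription or translation factors and were picked after their values were seen. Med14, a backbone subunit of Mediator, was at 8.51 and 8.57 in IkL/L CDPs and at 9.06 and 9.21 in WT CDPs (-0.59 ± 0.08, adjusted p = 0.00367). The TFIID subunits Taf5 (-0.70 ± 0.14, adjusted p = 0.0435) and Taf9 (-0.56 ± 0.11, adjusted p = 0.0339), the CREB relative Atf1 (-0.69 ± 0.14, adjusted p = 0.049), the histone acetylation complex subunit Kansl2 (-0.51 ± 0.09, adjusted p = 0.0315), the initiation factor Eif5 (-0.46 ± 0.07, adjusted p = 0.0141) and the m6A reader Ythdf1 (-0.42 ± 0.09, adjusted p = 0.0474) were the others. The falls of these 7 genes were all under 2-fold. With 1 array left out, Med14 was called in all 16 fits, Cds1 and Lin9 in 15, Gapt and Csrp2 in 14, Cip2a and Eif5 in 13, Kansl2 in 11, Taf5 and Taf9 in 5, Mtfr2 in 4, Atf1 in 2 and Ythdf1 in 1. The highest adjusted p for these 13 genes in any such fit ran from 0.044 for Med14 to 0.363 for Ythdf1.

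The genes called under vehicle were then read in CDPs given GSI, on 4 other arrays that may come from the same mice. Those arrays also entered the pooled spread by which the genes were called, as did the MDP arrays below. Called genes tend to have a small pooled spread, so the shares called again are partly set by the first call. There 270 genes were higher (1.35%) and 158 lower (0.792%) in IkL/L than in WT CDPs. Of the 186 genes risen under vehicle, all were higher with GSI, against 45.3% of all genes, and 148 were called (79.6%). Of the 49 fallen genes, all were lower with GSI, against 54.7% of all genes, and 37 were called (75.5%). Their mean signal per array was 7.02 and 7.10 in GSI-treated IkL/L CDPs and 5.34 and 5.52 in GSI-treated WT CDPs for the risen genes, and 6.82 and 6.87 in IkL/L and 8.01 and 7.87 in WT for the fallen genes. WT array 2 was the lower of the WT pair for the fallen genes here, and the higher under vehicle. The replicate differences of the vehicle-treated and GSI-treated arrays correlated over all genes with r = 0.658 in IkL/L CDPs and 0.585 in WT CDPs, so arrays with the same number share some of their deviation. No gene was called for a different genotype effect under vehicle than under GSI by the interaction test in limma (0 called, 286 at an unadjusted p under 0.05). Those 286 are fewer than the threshold would pass if no gene differed. The fit did not pair arrays by number, so the shared deviation stayed in its error and the test was strict. The lack of calls therefore does not show that the effects were equal.

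Some named genes had a smaller change with GSI, in either direction, and were not called there. Mrc1 had a log2 fold change of 2.64 under vehicle and of 1.04 ± 0.35 with GSI (adjusted p = 0.259), Slamf9 of 2.17 and 0.65 (adjusted p = 0.639), Cd72 of 1.60 and 0.34 (adjusted p = 0.914), Cyp39a1 of -2.03 and -1.04 (adjusted p = 0.362) and Csrp2 of -1.14 and -0.47 (adjusted p = 0.44). Several mitosis genes were further below WT with GSI than under vehicle, among them Kif18a with -1.96 and Bub1 with -1.97. None of these differences between treatments passed the interaction test.

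**Figure D4:**
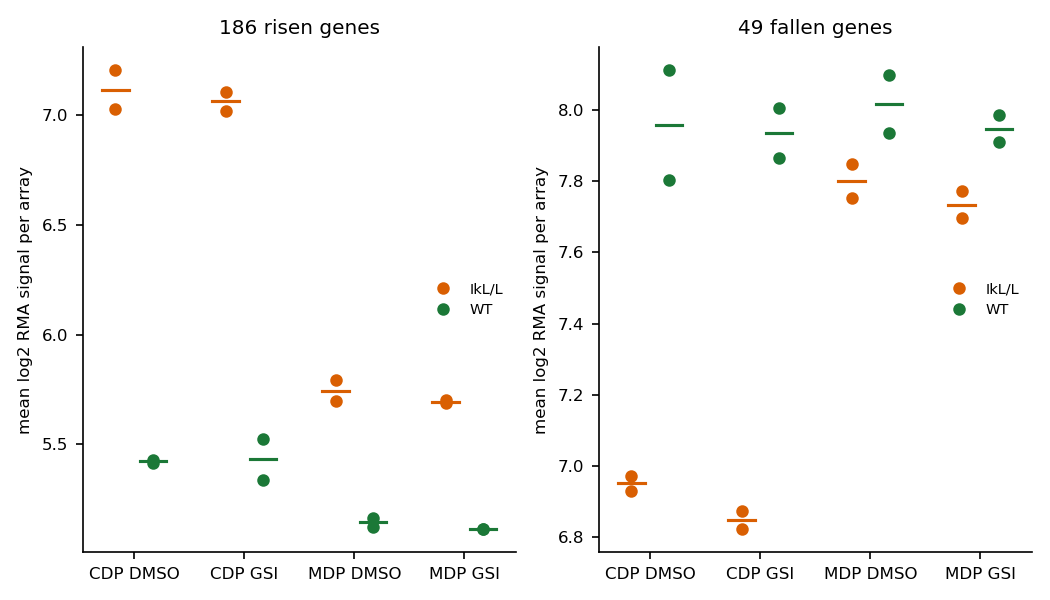
Mean log2 RMA signal per array (vertical axis) of the 186 risen and the 49 fallen genes in all 8 groups, with 1 point an array and a bar at the mean of 2. For the risen genes the 4 IkL/L CDP arrays lie between 7.02 and 7.20 and every other array at or below 5.79, and for the fallen genes they lie between 6.82 and 6.97 and every other array at or above 7.70. The genes were called on the difference between the vehicle-treated CDP arrays, with the spread pooled over all 8 groups. The gap between genotypes among the vehicle-treated CDP arrays therefore follows from the call.

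In vehicle-treated MDPs, the earlier progenitors, the same genes moved less. IkL/L MDPs had 21 genes higher (0.105%) and 0 lower (0%) than WT MDPs, with 369 lower at an unadjusted p under 0.05. Of the 186 risen genes, 163 were higher in IkL/L MDPs (87.6%, against 49.8% of all genes), 16 were called, and the median log2 fold change was 0.33. Of the 49 fallen genes, 41 were lower (83.7%, against 50.2% of all genes) and 0 were called by limma. At an unadjusted p under 0.05, 11 of the 49 were lower, and the median was -0.16. The mean signal of the risen genes was 5.70 and 5.79 in IkL/L MDPs and 5.17 and 5.13 in WT MDPs, and that of the fallen genes 7.75 and 7.85 in IkL/L MDPs and 7.94 and 8.10 in WT MDPs.

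Single genes differed widely in their values in MDPs, where 23 of the risen and 8 of the fallen genes had the opposite sign. Mrc1 was higher by 3.38 in IkL/L MDPs and by 2.64 in IkL/L CDPs, Actn1 by 2.76 and 3.27, F11r by 2.10 and 2.60, and Lilra6 was lower in both, with -1.47 and -1.62. By contrast H2-M2 had a log2 fold change of 0.02 in MDPs and 3.56 in CDPs, Ramp3 of 0.27 and 3.45, Mmp25 of 0.35 and 3.59, and Serpinb9 of 0.09 and 2.76. For these last 4 genes the difference between stages passed the interaction test in limma, which called 21 genes in all. For Mrc1, Actn1, F11r and Lilra6 it did not.

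**Figure D5:**
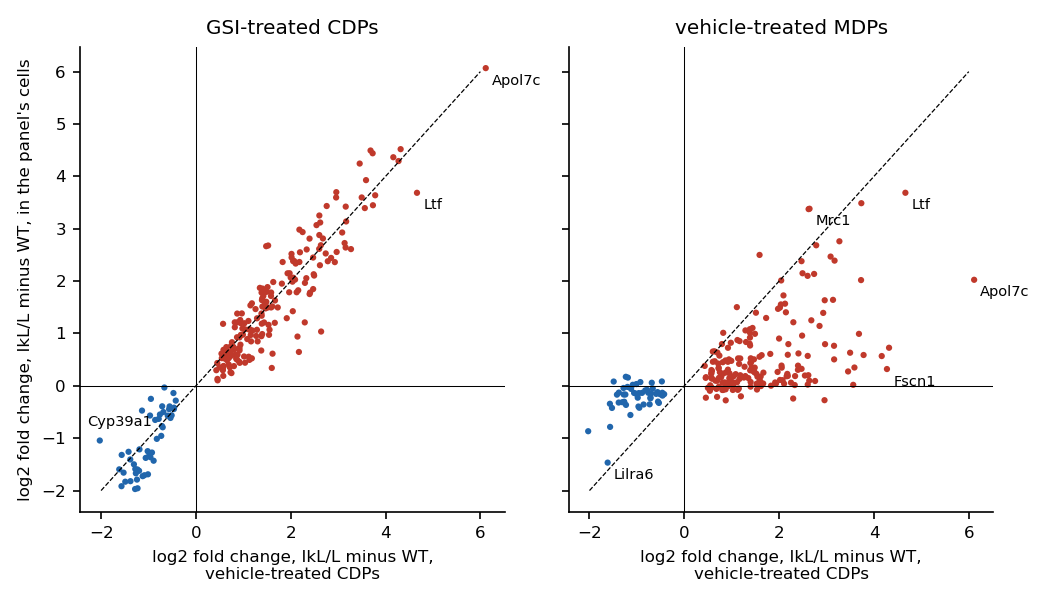
Log2 fold change (IkL/L minus WT) of the 235 called genes in GSI-treated CDPs and in vehicle-treated MDPs (vertical axes) against that in vehicle-treated CDPs (horizontal axes), with risen genes in red, fallen genes in blue and the line of equal values dashed. The points follow the line in GSI-treated CDPs, while most lie near 0 in MDPs, with medians of 0.33 and -0.16.

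Functions with no call in vehicle-treated CDPs included DC progenitor genes (24 measured, median 0.05), stem and early progenitor genes (23, median -0.07), lysosomal genes (47, median 0.21), pattern recognition receptors (36, median 0.05), the unfolded protein and heat shock response (32, median 0.14) and antioxidant, iron and metal genes (42, median 0.11). The members at an unadjusted p under 0.05 numbered 2 in each of the first 2 lists, 9 for lysosomes, 4 for pattern recognition, 4 for the unfolded protein response and 8 for antioxidant genes. Within these, Ctsk, the cathepsin of bone resorption, had values of 6.76 and 5.20 in IkL/L CDPs and of 4.13 and 3.69 in WT CDPs (2.07 ± 0.46, adjusted p = 0.0704), and Lcn2, an iron-siderophore binding protein, of 11.97 and 11.30 in IkL/L CDPs and of 8.98 and 9.24 in WT CDPs (2.53 ± 0.59, adjusted p = 0.0809). Myb, a factor of early progenitors, had values of 6.64 and 7.21 in IkL/L CDPs and of 6.97 and 8.81 in WT CDPs (-0.97 ± 0.61, adjusted p = 0.748), which overlap. Ly6d had values of 5.80 and 5.52 in IkL/L CDPs and of 6.69 and 8.15 in WT CDPs (-1.76 ± 0.66, adjusted p = 0.38).

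For 12 called genes the array held a further probe set with a symbol of its own. Of these 13 probe sets, 12 had the sign of the one used. The exception was Clec4g, at -0.04 in the further probe set and at 1.39 in the one used, which was called in 5 of the 16 fits with 1 array left out (highest adjusted p = 0.289). Some further probe sets had smaller values, with 0.45 and 1.16 in the one used for Cd80, 0.57 and 0.95 for Irf1 and 0.94 and 1.35 for Birc2. Of the fallen genes, Depdc1a had -1.57 in the further probe set and -1.49 in the one used, and Cks2 had -1.04 and -0.87 in its further probe sets and -1.02 in the one used.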

How the data were processed

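Arrays were processed by the authors before deposit: per the labels, 0.69 to 20 ng of total RNA was amplified with a NuGEN kit, and the deposited log2 values come from Affymetrix Expression Console 1.4.1 and its RMA step (background correction, quantile normalization and probe summary). Amplification from little RNA can add to the spread between arrays. The values are not centred and run from 2.55 to 13.46, with array medians of 4.52 to 4.65. No detection call, scan date or genome build was given in the sources used here. Genes were named from GEO's platform table: of 28188 probe sets, 21789 have 1 symbol, 1621 several and 4778 none, and each of 19938 symbols was represented by its brightest probe set on average. One linear model of 8 groups of 2 arrays was fitted in limma 3.58.1 under R 4.3.3 (lmFit and eBayes, two-sided, 8 residual and 2.35 prior degrees of freedom), tested on simulated data first. Values after ± are moderated standard errors. With 2 arrays against 2, an exact permutation test cannot give less than 0.333. P-values measure only the spread between these arrays, whose number limits the precision. Named genes were the 25 largest rises and 25 largest falls among called genes whose arrays did not overlap, up to 4 called or 2 other members of each of 48 lists, the Ikaros family and gate markers, and others are marked in the text. The members, lists and tests were chosen with earlier results of these data known. Alternatives were other sets of arrays, a replicate block, a filter at log2 5, other scalings and probe set rules, array weights, trend and robust eBayes, and a test against 1.5-fold. Promoters came from RefSeq (GRCm38.p6), first listed start per gene.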

Additional observations from a re-analysis of the deposited data

Results flagged for a closer look

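In 21 genes the genotype effect under vehicle differed between CDPs and MDPs by the interaction test in limma, with Benjamini-Hochberg adjustment over all genes, and all 21 were among the genes risen in CDPs. The difference (log2 fold change in CDPs minus that in MDPs) was 3.95 for Fscn1, 3.59 for Serpinb6b, 3.54 for H2-M2, 3.24 for Mmp25, 3.19 for Clu, 3.18 for Ramp3, 2.67 for Serpinb9, 2.54 for Traf1 and 2.54 for Ppbp. It was 2.15 for Apod, 2.15 for Fxyd2, 2.09 for Bcl2a1c, 1.97 for Tspan3, 1.85 for Itgb8, 1.66 for Ube2l6, 1.5 for Pxdc1, 1.43 for Zmynd15, 0.938 for Pvr, 0.928 for Stk39, 0.92 for Fbrsl1 and 0.86 for Rhoc. The adjusted p of these ran from 0.00755 to 0.0477. Ppbp, Pvr, Stk39 and Fbrsl1 had a log2 fold change below 0 in MDPs.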

How the results depend on the processing

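In the 8 vehicle-treated arrays alone, 114 genes rose and 18 fell, among them 103 of the 186 and 14 of the 49 genes of the report. In the 4 compared arrays alone, which leave 2 residual degrees of freedom, 4 rose and 0 fell. Against a change of 1.5-fold, 56 rose and 0 fell. With each array centred on its median, 31 fell, against 49. Leaving out each array in turn gave 84 to 204 risen and 4 to 96 fallen genes, the lowest without WT CDP array 2 and the highest number of falls without WT CDP array 1. The genes risen under vehicle and called with GSI numbered 87 to 145 in those fits, and the fallen ones 21 to 37. The risen genes called in MDPs numbered 0 to 18 and were 4 in the vehicle-treated arrays alone, and the fallen ones 0 to 1. With the replicate number as a replicate block, 248 genes rose and 117 fell. The sources do not say that a number marks shared mice or days, so the pairing is not given by the design, but the replicate differences of the 4 CDP groups correlated with r = 0.348 (IkL/L and WT under vehicle) to 0.658. The other alternatives kept the counts within 1.5 times of those reported, and no called gene that was named changed its direction in any. The table holds no signal over background, so low signals cannot be told from none.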

Other observations

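The signal of Y-linked genes differed among arrays of 1 group. In the IkL/L groups Eif2s3y lay between 5.89 and 7.04 in 7 arrays and at 3.33 in array 2 of GSI-treated MDPs. In the WT groups it lay between 3.06 and 3.52 in array 2 of all 4 groups and between 6.63 and 6.90 in array 1. Xist lay between 7.42 and 9.37 in all 16 arrays, with the lowest value in array 2 of GSI-treated IkL/L CDPs.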
